A study of Mus musculus with 12 samples.

Results

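Cytochrome P450 genes were followed through sorted intestinal stem cells of mice with 0, 1 or 2 floxed copies of Apc after tamoxifen. All symbols made of Cyp and a number were taken, and their FPKM (sequenced fragments scaled to transcript length and to the size of the library) were summed per symbol. Of 47 such symbols in the tables, 42 reached 1 FPKM in at least 4 of the 12 libraries, out of 13344 symbols of any kind that did. They were sorted by subfamily into 18 xenobiotic, 15 fatty acid, 5 sterol, 1 retinoid and 3 orphan symbols, orphan meaning enzymes without a settled substrate. The rule used no difference between genotypes. The members just inside it, at 1 FPKM in exactly 4 libraries, were Cyp1a1, Cyp1b1, Cyp26b1, Cyp27b1 and Cyp4a10, and Cyp2d10, at 3 libraries, lay just outside.

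The cells were Lgr5-GFP+ cells sorted from the intestinal epithelium of C57BL/6 mice. Every mouse, controls included, carried the Lgr5-CreERT2-ires-eGFP allele, in which the Lgr5 gene drives both the inducible Cre recombinase and the reporter used for the sort. Each mouse received 1 tamoxifen injection and 5 days of tamoxifen diet, and cells were taken on day 15. Apc_WT names the 4 Apc+/+ mice, Apc_HET the 4 mice with 1 floxed allele (ApcFlox/+), and Apc_KO the 4 with a pair of them (ApcFlox/Flox), and the labels give no age, sex or batch.

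P450 enzymes are haem-containing monooxygenases that insert an oxygen atom into small lipophilic molecules. Most sit in the endoplasmic reticulum and take electrons from the reductase Por, and a few sit in mitochondria and take them from ferredoxin. In the intestine, P450 enzymes of absorptive enterocytes meet drugs and dietary compounds first, while other P450 enzymes make or break fatty acid mediators, sterols, vitamin D and retinoic acid.

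Total FPKM per library ran from 391710 to 518428, and log2 values correlated at 0.913 to 0.981 across genes within a genotype. The number of reads behind an FPKM value is unknown, so no counting error can be given. For Apc itself, libraries ranged over 6.91 to 10.5 FPKM (Apc_WT), 9.81 to 12.5 (Apc_HET) and 9.94 to 17.3 (Apc_KO). Each table gives Apc a single value, so the deletion itself was not measured. Lgr5, the gene behind the sort, ranged over 20.2 to 30.0 FPKM (Apc_WT), 21.3 to 31.6 (Apc_HET) and 26.99 to 65.4 (Apc_KO). Scaling by size factors moved the median difference of all genes between Apc_KO and Apc_WT from 0.12 to 0.01 on the log2 scale. The calls over all genes went from 3613 higher and 2291 lower to 2864 and 2829, and those over P450 genes stayed at 9 higher and 20 lower.

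The first comparison, Apc_KO against Apc_WT, addresses P450 RNA after both copies of Apc had been targeted. P450 genes fell more often than they rose. Xenobiotic and many fatty acid P450 genes fell, with Cyp3a11 at -4.16 on the log2(FPKM + 1) scale, while the called sterol, retinoid and orphan genes had risen, Cyp27a1 by 2.46. Of 41 symbols tested, 29 were called at an adjusted p under 0.05 (limma with Benjamini-Hochberg adjustment), 9 higher and 20 lower. Among all 12962 symbols tested, 45.5% were called, 27.9% higher and 17.7% lower. By class, 15 of 17 xenobiotic, 10 of 15 fatty acid, 2 of 5 sterol, 1 of 3 orphan and the single retinoid symbol were called. The sterol and orphan shares (40.0% and 33.3%) lie below that of all symbols, and differences between classes were not tested. The P450 median difference was -0.45, beside 0.12 over all symbols. In 25 of the 41 the libraries of the genotypes did not overlap, and over all symbols this held for 40.4%. The symbols Cyp1b1 and Cyp26b1 reached 1 FPKM in Apc_KO libraries alone and so had to differ once they passed the filter. Among the 39 symbols at 1 FPKM or more in at least 2 genotypes, 7 were called higher and 20 lower. Of these, Cyp2d9, called higher, reached 1 FPKM outside Apc_KO in Apc_HET replicate 4 alone (1.52 FPKM). Cyp3a11, Cyp3a25, Cyp3a59, Cyp2c29, Cyp2c66, Cyp2c70, Cyp2d22, Cyp2j9 and Cyp2u1, all called lower, passed the filter through Apc_WT and Apc_HET libraries alone. They were below 1 FPKM in every Apc_KO library and stay among the 39. The count of 39 symbols therefore cannot show how far the filter shaped the falls.

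**Figure D1:**
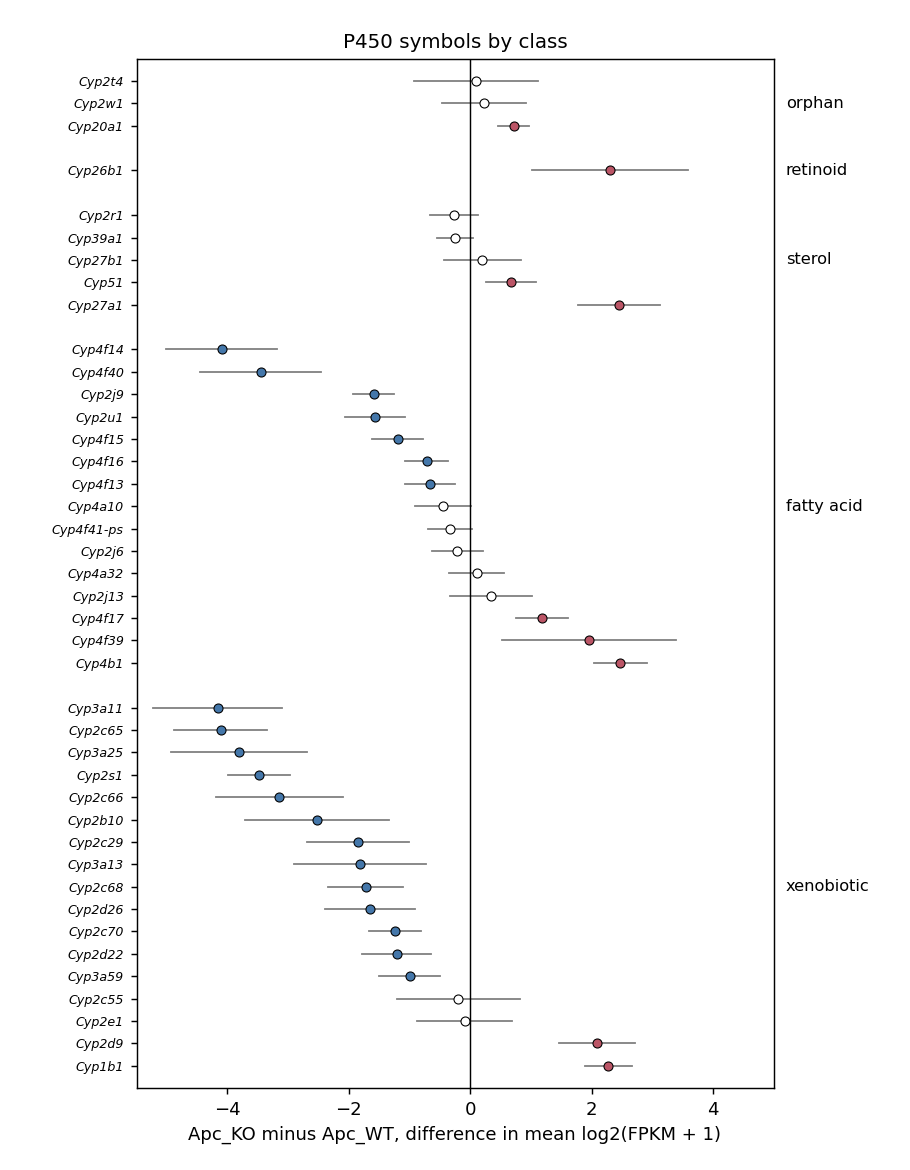
Difference in mean log2(FPKM + 1) between Apc_KO and Apc_WT for the 41 tested P450 symbols, grouped by class, with 95% confidence intervals from the limma fit as grey lines. Red points were called higher (9), blue points lower (20), and white points did not pass the adjusted p threshold. The xenobiotic points lie mostly left of 0, with Cyp3a11 at -4.16 and Cyp1b1 at 2.28 as the ends of the class.

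The make-up of the P450 pool differed with it. The summed level of the xenobiotic symbols was 286 ± 128 FPKM in Apc_WT, 182 ± 70.1 in Apc_HET and 73.0 ± 34.8 in Apc_KO (SD, n = 4), and that of the sterol symbols 40.7 ± 3.11, 41.3 ± 3.36 and 89.4 ± 16.5. FPKM are per length, but sums, shares and ranks across genes are only approximate, because the loci differ in kind. In 11 members the locus covers under 80% of the gene. Several members are sums of entries, among them Cyp4f13 (5 entries), Cyp4b1 (3), Cyp27a1 (2) and Cyp3a13 (2). A Cyp27a1 entry of 333 bases lies outside the gene and overlaps the coding gene Prkag3. A Cyp4b1 entry of 451 bases also lies outside its gene. With only the largest entry of each symbol, Apc_KO against Apc_WT still had 9 calls higher and 20 lower. Cyp51, at a mean of 31.9 FPKM in Apc_KO, has a locus that takes in the neighbouring coding gene Akap9. In Apc_WT the highest mean levels were those of Cyp4f14 (73.5 FPKM), Cyp3a13 (65.3), Cyp4f13 (56.8) and Cyp2c65 (45.7). In Apc_KO they were those of Cyp27a1 (45.2 FPKM), Cyp4b1 (45.2), Cyp4f13 (36.9) and Cyp2j6 (36.1). The xenobiotic symbols held 39.55% to 54.8% of the summed P450 level in the Apc_WT libraries and 13.9% to 29.2% in the Apc_KO libraries. The sterol symbols held 4.38% to 9.87% and 23.1% to 30.0% in the same order, and the fatty acid symbols 39.7% to 47.9% and 38.2% to 54.5%.

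Xenobiotic P450 genes fell in 13 of 17 tested cases and rose in 2, with a median difference of -1.72. Cyp3a11 (chr5:145854607-145879854, the RefSeq gene span on GRCm38, as for the genes below), the main drug-oxidising Cyp3a enzyme of mouse intestine and liver, read 21.9, 20.7, 12.7 and 63.5 FPKM in Apc_WT replicates 1 to 4 and 11.2, 6.73, 2.79 and 16.7 in Apc_HET. It read 0.683, 0.285, 0.342 and 0.467 FPKM in Apc_KO. Every Apc_KO library was thus below every other library, and the mean was 66.8-fold higher in Apc_WT than in Apc_KO (29.7 ± 22.9 against 0.444 ± 0.177 FPKM, SD, n = 4). Without Apc_WT replicate 4 the ratio was 41.5. The difference on the log2(FPKM + 1) scale was -4.16 (SE 0.49, limma adjusted p = 2.38e-05).

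Cyp3a25 (chr5:145977192-146009644), a neighbouring Cyp3a gene, read 15.4, 14.8, 8.63 and 43.1 FPKM in Apc_WT, 13.7, 4.94, 4.19 and 23.7 in Apc_HET and 0.0201, 0.517, 0.373 and 0.348 in Apc_KO. Its groups did not overlap between Apc_KO and Apc_WT, and the difference was -3.81 (SE 0.52, limma adjusted p = 7.67e-05). Of the 50-base words of its transcript (GENCODE), 26.8% occur in other genes, mostly in Cyp3a59, so reads of these copies cannot be told apart with certainty. Cyp3a59 itself fell by 0.998 from levels of 0.746 to 2.06 FPKM in Apc_WT, over a locus that covers 48.8% of the gene.

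Cyp2c65 (chr19:39061006-39093948), a Cyp2c gene of the gut, read 43.8, 37.4, 30.0 and 71.5 FPKM in Apc_WT and 35.9, 22.4, 21.2 and 47.2 in Apc_HET. In Apc_KO it read 0.682, 3.33, 2.01 and 0.966 FPKM, again below every other library. The difference was -4.11 (SE 0.35, limma adjusted p = 1.82e-06), and the mean was 26.1-fold higher in Apc_WT than in Apc_KO. Cyp2c65 shares 20.7% of its 50-base words with other genes, nearly all with Cyp2c66, which fell by 3.15. Cyp2c66 averaged 9.97 FPKM in Apc_WT and 0.107 in Apc_KO, a 93.4-fold ratio of means.

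Cyp2s1 (chr7:25802469-25816525), a P450 gene found mainly outside the liver, had the narrowest relative spread of these 4 in Apc_WT. It read 26.0, 25.2, 17.9 and 29.8 FPKM in Apc_WT, 22.1, 18.2, 17.5 and 24.5 in Apc_HET and 0.546, 1.89, 2.18 and 0.826 in Apc_KO. The difference was -3.49 (SE 0.23, limma adjusted p = 2.88e-07). Cyp2s1 shares no 50-base word with another gene.

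Cyp3a13 (chr5:137892933-137925610), the xenobiotic symbol with the highest mean over all libraries, behaved less evenly. It read 52.6, 61.9, 56.9 and 89.8 FPKM in Apc_WT, 43.5, 27.9, 29.0 and 60.8 in Apc_HET and 57.4, 15.7, 6.08 and 15.6 in Apc_KO. Apc_KO replicate 1 lay inside the Apc_WT range, so the groups overlapped, and the difference was -1.82 (SE 0.50, limma adjusted p = 0.0104).

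The other called falls in this class were Cyp2b10 (-2.52), a target gene of the receptor Nr1i3, Cyp2c29 (-1.84, locus 51.6% of the gene), Cyp2c68 (-1.72), Cyp2d26 (-1.65), Cyp2c70 (-1.24) and Cyp2d22 (-1.21). Cyp2e1, which oxidises ethanol, read 8.94 to 22.2 FPKM in Apc_WT and 7.97 to 30.8 in Apc_KO and did not pass (-0.09, 95% interval -0.88 to 0.69). Cyp2c55 read 3.67 to 24.1 FPKM in Apc_WT and 5.83 to 11.1 in Apc_KO and did not pass either (-0.19, interval -1.21 to 0.82). These intervals still allow a change of about the size of the smaller called falls.

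Both xenobiotic genes that rose were low in the other genotypes. Cyp1b1 (chr17:79706940-79715061), which oxidises oestrogens and polycyclic hydrocarbons, was listed at 0 in 3 Apc_WT libraries and at 0.0142 FPKM in the other, and read at most 0.00562 FPKM in Apc_HET. It read 5.85, 3.42, 2.55 and 4.203 FPKM in Apc_KO (difference 2.28, SE 0.18, limma adjusted p = 8.2e-07). Cyp2d9 read at most 0.594 FPKM in Apc_WT and 0.196, 0, 0.0653 and 1.52 in Apc_HET. In Apc_KO it read 3.03 to 5.70 FPKM (difference 2.09, SE 0.29, limma adjusted p = 9.1e-05). The Cyp2d9 locus covers 33.7% of the gene and 29.0% of its 50-base words occur in other genes, so its level is uncertain.

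**Figure D2:**
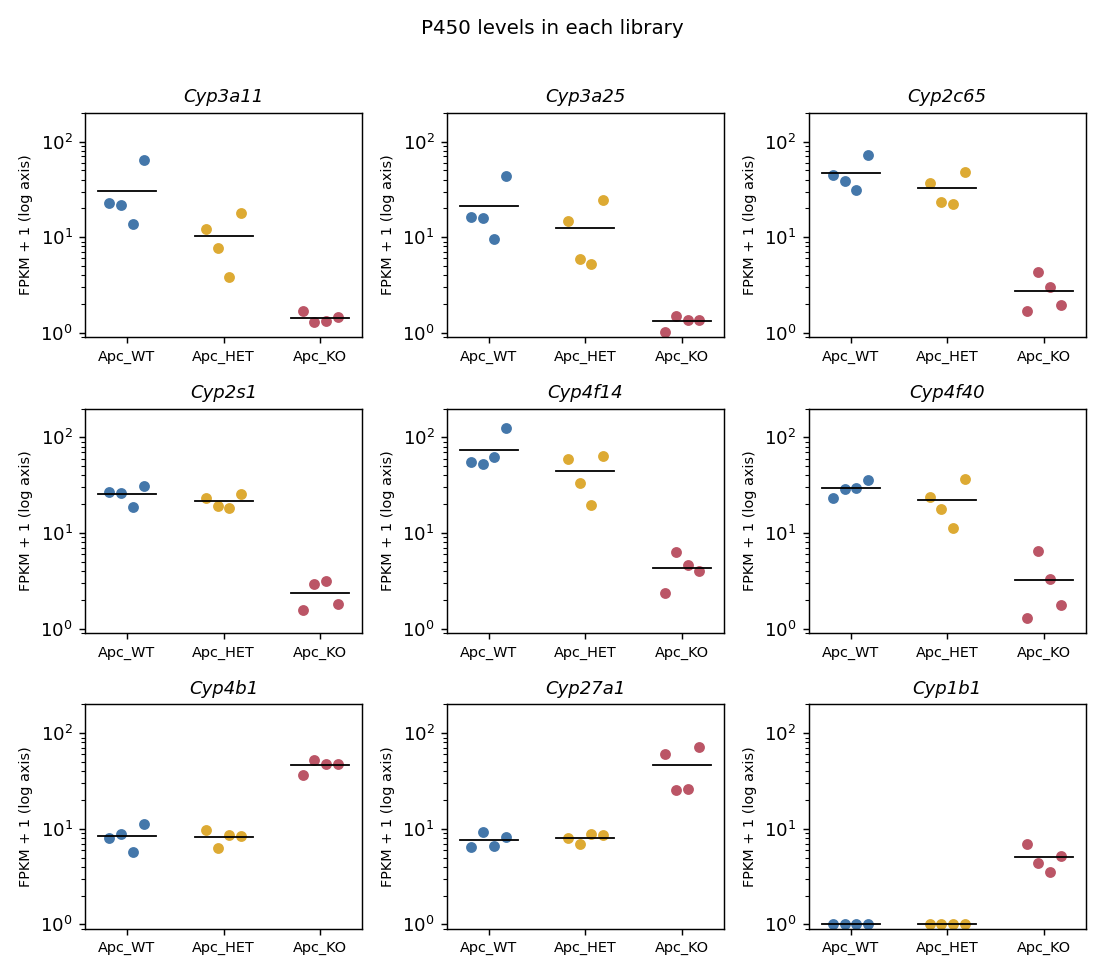
FPKM + 1 on a log axis for 9 P450 symbols, with 1 point per library in replicate order from left to right and the mean of 4 as a black line (blue Apc_WT, yellow Apc_HET, red Apc_KO). The Apc_KO points of Cyp3a11, Cyp3a25, Cyp2c65, Cyp2s1, Cyp4f14 and Cyp4f40 lie below all others, and those of Cyp4b1, Cyp27a1 and Cyp1b1 above all others.

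Promoters of the members were searched for short motifs, because members of 1 class moved together. RefSeq windows on GRCm38.p6, from 250 bases before to 50 bases after the first listed start of a gene, were found for 36 of the 42 members. That start is not always the outer end of the gene span. The windows of Cyp27a1, Cyp3a13 and Cyp2j6, for example, lie inside the span. Of 9 motifs searched on both strands, CAAAGTCCA, a binding sequence of the enterocyte and hepatocyte factor Hnf4a and its relative Hnf4g, stood in the windows of 4 of 18 genes that fell. It stood in 0 of 8 that rose and 0 of 9 that did not pass, and in 0.477% of 27025 promoters of any gene. The 4 genes were Cyp3a11, Cyp2c65, Cyp2c68 and Cyp2c70, with the match 109, 116, 77 and 64 bases before the start, and 0 of these matches overlapped another motif of the search. Cyp2c65, Cyp2c68 and Cyp2c70 are related genes of 1 cluster on chromosome 19, so the 4 matches are not independent of each other. Their sequences are shown because they carry the match, 5′ to 3′ on the gene's strand over the 250 bases before the start, with the match in capitals. The windows are chr5:145879855-145880104 (minus strand) for Cyp3a11, chr19:39060756-39061005 (plus) for Cyp2c65, chr19:39741102-39741351 (minus) for Cyp2c68 and chr19:40187287-40187536 (minus) for Cyp2c70.
Cyp3a11: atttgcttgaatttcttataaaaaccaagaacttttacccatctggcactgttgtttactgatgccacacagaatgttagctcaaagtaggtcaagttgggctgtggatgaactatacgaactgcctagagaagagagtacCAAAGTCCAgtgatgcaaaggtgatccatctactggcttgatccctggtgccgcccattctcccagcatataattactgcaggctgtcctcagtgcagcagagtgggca
Cyp2c65: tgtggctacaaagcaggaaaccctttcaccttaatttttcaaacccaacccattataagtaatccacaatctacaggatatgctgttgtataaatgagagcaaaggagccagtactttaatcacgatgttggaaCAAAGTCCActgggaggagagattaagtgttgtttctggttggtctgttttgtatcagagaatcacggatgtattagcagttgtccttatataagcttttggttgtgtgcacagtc
Cyp2c68: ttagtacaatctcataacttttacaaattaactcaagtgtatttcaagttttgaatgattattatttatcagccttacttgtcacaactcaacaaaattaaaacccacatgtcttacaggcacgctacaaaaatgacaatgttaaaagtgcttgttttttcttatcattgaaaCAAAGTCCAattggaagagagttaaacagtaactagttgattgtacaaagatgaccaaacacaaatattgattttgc
Cyp2c70: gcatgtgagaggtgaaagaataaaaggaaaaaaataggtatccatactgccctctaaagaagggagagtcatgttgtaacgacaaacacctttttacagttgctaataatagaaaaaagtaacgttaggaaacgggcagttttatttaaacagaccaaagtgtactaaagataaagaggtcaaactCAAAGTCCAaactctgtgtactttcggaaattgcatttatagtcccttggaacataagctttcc

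The match is a description of these letters and shows neither binding nor a cause, and a window without it says only that these letters are not in it. TATAAA stood in 6 of 18 windows of genes that fell, 2 of 8 that rose and 3 of 9 that did not pass (14.2% of all promoters). In the same order of groups, the nuclear receptor half-site AGGTCA stood in 5, 0 and 1 (16.0% of all) and the Hnf1 half-site GTTAAT in 3, 0 and 1 (7.20%). The TCF/LEF sequences CTTTGAA and CTTTGAT, at which beta-catenin is recruited to its target genes, each stood in 1 window of genes that fell and 0 of genes that rose, and in 1 and 0 of those that did not pass (5.27% and 3.72% of all). The half-site AGTTCA stood in 2, 1 and 1 windows (14.0% of all) and the dioxin response core GCGTG in 5, 4 and 3 (32.5%). A sterol response sequence of Srebf2 and its relatives stood in 0 of each group (0.0851% of all).

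The windows also differed in CpG dinucleotides, the sites of DNA methylation. The median number per 300-base window was 2 in the 18 genes that fell (range 0 to 17) and 10.5 in the 8 that rose (range 1 to 28). It was 4 in the 9 that did not pass (range 0 to 22) and 7 over all promoters. The ranges overlapped, with Cyp2s1 at 17 among the genes that fell and Cyp2d9 at 1 among those that rose. A window with few sites, that of Cyp3a25 (chr5:146009619-146009868, minus strand), is set below against those of Cyp27a1 (chr1:74713285-74713534, plus) and Cyp1b1 (chr17:79715062-79715311, minus). Each shows the 250 bases before the first listed start with CpG in capitals, of which there are 1, 7 and 12. The Cyp27a1 window lies inside the gene span given for it below, so it is not the sequence before the outer end of that span. Methylation itself was not analysed here.
Cyp3a25: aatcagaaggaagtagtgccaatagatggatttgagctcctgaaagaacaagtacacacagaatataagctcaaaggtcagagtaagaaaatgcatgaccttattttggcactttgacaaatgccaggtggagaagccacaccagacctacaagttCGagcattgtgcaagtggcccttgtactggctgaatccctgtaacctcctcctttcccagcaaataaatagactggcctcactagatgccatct
Cyp27a1: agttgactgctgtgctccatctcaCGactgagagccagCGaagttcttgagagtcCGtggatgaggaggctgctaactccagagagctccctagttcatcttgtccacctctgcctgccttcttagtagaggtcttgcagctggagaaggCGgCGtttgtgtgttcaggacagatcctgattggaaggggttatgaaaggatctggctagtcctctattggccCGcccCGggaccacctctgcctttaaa
Cyp1b1: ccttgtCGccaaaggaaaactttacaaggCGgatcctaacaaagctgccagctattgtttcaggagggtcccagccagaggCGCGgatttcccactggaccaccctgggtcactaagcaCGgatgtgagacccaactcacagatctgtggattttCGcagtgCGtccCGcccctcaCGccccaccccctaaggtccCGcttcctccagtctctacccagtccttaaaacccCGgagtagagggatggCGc

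Fatty acid P450 genes went both ways, with 7 of 15 lower, 3 higher and 5 not passing (median -0.45). Cyp4f14 (chr17:32903357-32917376), which hydroxylates leukotriene B4 and other lipids, read 54.5, 51.8, 61.9 and 126 FPKM in Apc_WT and 58.9, 32.1, 18.4 and 63.6 in Apc_HET. It read 1.33, 5.36, 3.62 and 2.97 FPKM in Apc_KO, the highest of which was below the lowest Apc_HET library. The difference was -4.10 (SE 0.42, limma adjusted p = 8.17e-06).

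Cyp4f40 (chr17:32658886-32676919) read 22.0, 28.2, 28.2 and 34.6 FPKM in Apc_WT, 22.6, 16.9, 10.3 and 35.6 in Apc_HET and 0.289, 5.47, 2.28 and 0.783 in Apc_KO. The Apc_KO libraries spread over more than the Apc_WT libraries on the log scale but did not reach them (difference -3.45, SE 0.46, limma adjusted p = 6.47e-05). Cyp4f16, at 14.7, 17.1, 16.4 and 23.6 FPKM in Apc_WT and 9.15, 10.9, 9.01 and 12.8 in Apc_KO, fell less and without overlap (difference -0.71, SE 0.16, limma adjusted p = 0.00325). Cyp4f16 shares 26.5% of its 50-base words with other genes, mostly Cyp4f37.

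Cyp4f13 (chr17:32924688-32947415), the fatty acid symbol with the highest mean over all libraries, read 52.2, 57.6, 53.0 and 64.2 FPKM in Apc_WT and 46.5, 57.7, 52.4 and 60.8 in Apc_HET. In Apc_KO it read 56.0, 26.6, 33.7 and 31.2 FPKM. Replicate 1 lay within the Apc_WT range and the other 3 below it, and the difference was -0.66 (SE 0.19, limma adjusted p = 0.0132). Cyp2j9, an epoxygenase gene (-1.59), Cyp2u1, a fatty acid hydroxylase gene (-1.57), and Cyp4f15 (-1.20) completed the genes that fell.

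The genes that rose in this class were Cyp4b1, Cyp4f39 and Cyp4f17. Cyp4b1 (chr4:115624698-115647721), a fatty acid hydroxylase gene whose product also activates some toxins, read 7.06, 7.80, 4.77 and 10.2 FPKM in Apc_WT and 8.71, 5.35, 7.59 and 7.46 in Apc_HET. In Apc_KO it read 35.6, 51.9, 46.4 and 46.8 FPKM, 6.07-fold the Apc_WT mean, with no overlap (difference 2.48, SE 0.20, limma adjusted p = 1.12e-06).

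Cyp4f39, known for the long-chain fatty acids of the skin barrier, read 0.340, 0.368, 8.02 and 4.71 FPKM in Apc_WT, 0.220 to 0.574 in Apc_HET and 5.47, 23.1, 23.4 and 4.59 in Apc_KO. The Apc_WT libraries were split between near 0 and levels inside the Apc_KO range. Its difference of 1.95 (SE 0.66, limma adjusted p = 0.029) lost its call without Apc_WT replicate 1 (1.55) or 2 (1.56), without Apc_KO replicate 2 (1.62) or 3 (1.61), and in a fit of only these genotypes (1.95). Its locus covers 5.58% of the gene's span with introns included, and holds 146 exonic bases. Cyp4f17 rose from 1.19 to 1.76 FPKM in Apc_WT to 3.05 to 6.73 in Apc_KO (difference 1.18).

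The 5 that did not pass were Cyp4a10 (-0.45), Cyp4f41-ps (-0.33), Cyp2j6 (-0.21), Cyp4a32 (0.11) and Cyp2j13 (0.35). Cyp2j6, an epoxygenase gene, was among the more abundant P450 genes in every genotype, with 31.6 to 59.4 FPKM (Apc_WT), 31.5 to 43.0 (Apc_HET) and 27.4 to 43.1 (Apc_KO) (95% interval of the difference -0.63 to 0.20). Its locus covers 77.9% of the gene. The locus of Cyp4f41-ps, a pseudogene, also holds the coding gene Zfp472, so its value cannot be given to the P450 gene with certainty. That of Cyp2j13 covers 0.902% of the gene, in 315 exonic bases without coding sequence, so its level rests on a small part of the gene.

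Of 5 sterol P450 genes 2 rose, 0 fell and 3 did not pass. Cyp27a1 (chr1:74713148-74737897), the mitochondrial sterol hydroxylase of bile acid synthesis, read 5.44, 8.29, 5.53 and 7.24 FPKM in Apc_WT and 7.06, 5.85, 7.72 and 7.63 in Apc_HET. It read 60.0, 24.4, 25.2 and 71.4 FPKM in Apc_KO, a mean 6.83-fold that of Apc_WT (45.2 ± 24.1 against 6.63 ± 1.39 FPKM, SD, n = 4). All Apc_KO libraries were above all others, replicates 1 and 4 by the most (difference 2.46, SE 0.31, limma adjusted p = 4.33e-05). Its value sums 2 entries, and the shorter (333 bases) lies outside the gene and overlaps the coding gene Prkag3.

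Cyp51, the lanosterol demethylase of cholesterol synthesis, read 16.9, 16.96, 26.5 and 17.8 FPKM in Apc_WT, 19.7, 16.5, 18.2 and 20.5 in Apc_HET and 22.9, 43.3, 33.2 and 28.2 in Apc_KO. Apc_KO replicate 1 lay below Apc_WT replicate 3, so the groups overlapped (difference 0.67, SE 0.19, limma adjusted p = 0.0123). The Cyp51 locus is 7.37 times as long as the gene (chr5:4080674-4104697) and takes in the neighbouring coding gene Akap9, so its value may mix both. Cyp2r1 (-0.26), which starts vitamin D activation, Cyp27b1 (0.20, locus 55.4% of the gene), which completes it, and the oxysterol hydroxylase gene Cyp39a1 (-0.24) did not pass. Their highest values were 4.48, 2.34 and 12.7 FPKM.

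The retinoid class held Cyp26b1, which degrades retinoic acid. It read 0.234, 0, 0.377 and 0.586 FPKM in Apc_WT, 0.0686 to 0.935 in Apc_HET and 25.4, 2.53, 1.23 and 6.75 in Apc_KO. All Apc_KO libraries were higher, and they spread widely among themselves (difference 2.31, SE 0.59, limma adjusted p = 0.00674). The locus (chr6:84571769-84572852) covers 4.82% of the gene, is exonic throughout and holds 0 coding bases. Its relative Cyp26a1 did not pass the filter, with a highest value of 3.18 FPKM, in Apc_KO.

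Among orphan P450 genes Cyp20a1 (chr1:60343300-60388060) rose. It read 7.97, 8.70, 9.25 and 6.85 FPKM in Apc_WT, 6.87, 7.42, 8.51 and 8.16 in Apc_HET and 12.4, 15.4, 15.6 and 13.0 in Apc_KO, without overlap (difference 0.72, SE 0.12, limma adjusted p = 0.000368). Cyp2t4 (0.10) and Cyp2w1 (0.22) did not pass, and their loci cover 8.53% and 38.3% of the gene. The other symbols below the filter were Cyp2d10, Cyp2a5, Cyp17a1 and Cyp24a1, with highest values of 5.31, 1.70, 1.21 and 1.18 FPKM. Of the 31 tested symbols whose locus covers at least 80% of the gene, 6 were called higher and 18 lower.

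Several of these genes lie side by side, and neighbours did not always move together. All 3 Cyp3a members of the cluster on chromosome 5 fell, within 242 kb. On chromosome 19, 5 of 6 Cyp2c members fell and Cyp2c55, at 1 end of the row, did not pass. On chromosome 17 the Cyp4f members ran, over 511 kb, from Cyp4f39 and Cyp4f17, which rose, through Cyp4f16, Cyp4f40, Cyp4f15, Cyp4f14 and Cyp4f13, which fell, to Cyp4f41-ps, which did not pass. On chromosome 15 Cyp2d9, which rose, lies between Cyp2d22 and Cyp2d26, which fell. Members of a cluster share sequence, and beside those named above Cyp2c68, Cyp4a10 and Cyp4a32 also had over 20% of their 50-base words in other genes.

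**Figure D3:**
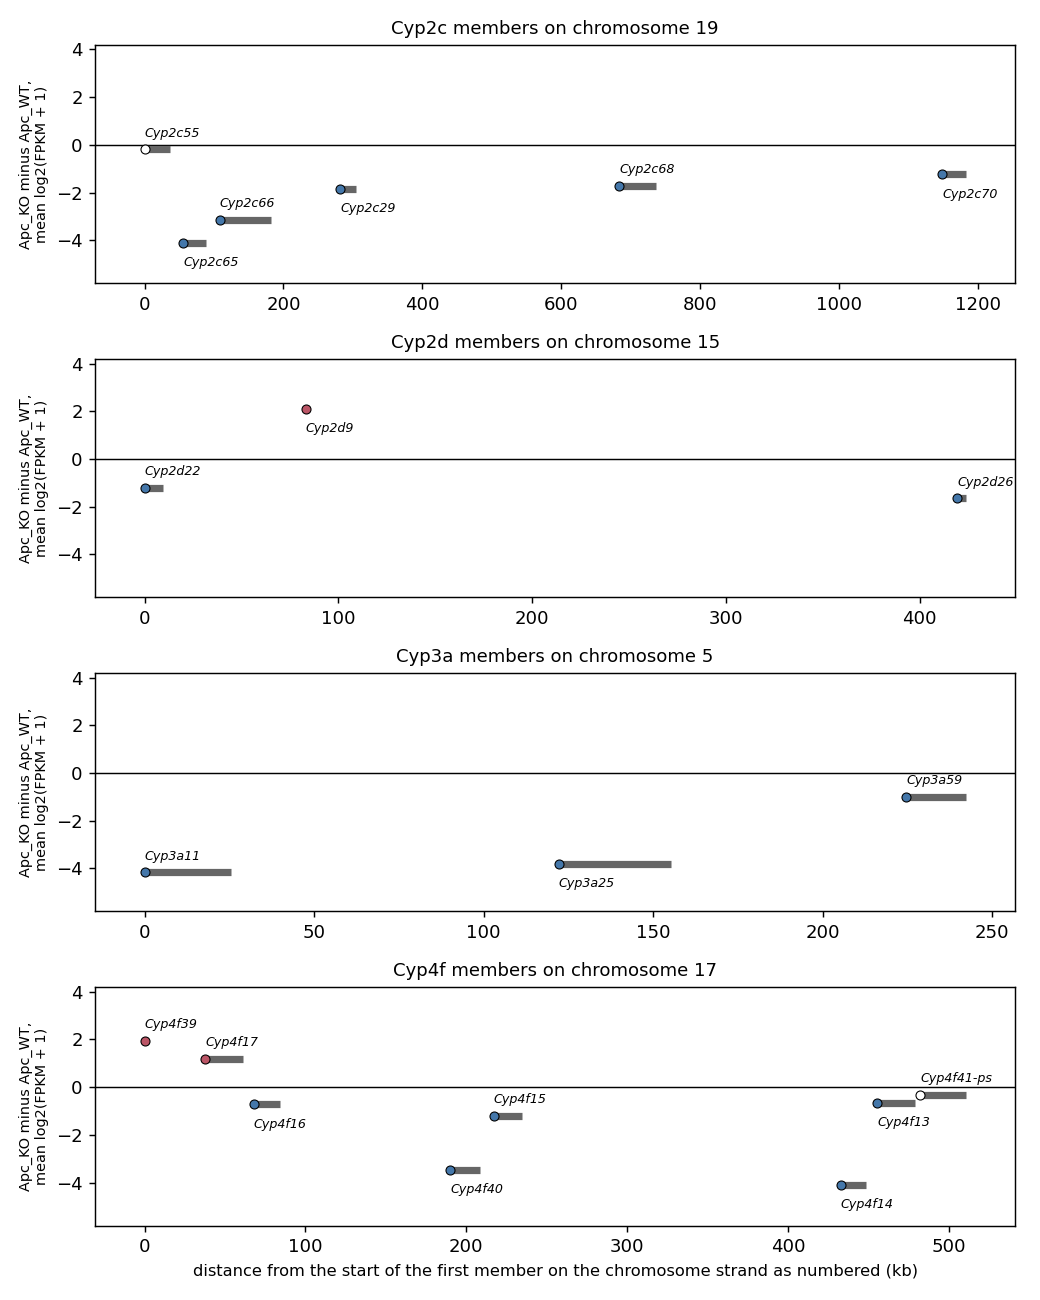
Difference in mean log2(FPKM + 1) between Apc_KO and Apc_WT (vertical axes) against distance in kb from the first member of each of 4 clusters, with grey bars for the length of each locus. Red was called higher, blue lower and white did not pass. Cyp4f39 and Cyp4f17 stand above 0 at 1 end of the Cyp4f cluster, and Cyp2d9 stands above 0 between neighbours below it.

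Libraries within a genotype differed in these genes in a shared way. Among the 20 symbols that fell, Apc_WT replicate 4 was the highest Apc_WT library in 18, and Apc_HET replicate 2 or 3 the lowest Apc_HET library in 17. How often this holds over all genes was not counted. The xenobiotic sum was 250, 241, 181 and 473 FPKM in Apc_WT replicates 1 to 4, 204, 128, 125 and 272 in Apc_HET and 122, 61.7, 40.4 and 67.5 in Apc_KO. Summed enterocyte markers (12 genes, such as Sis, Alpi and Fabp1, none at 0 in any library) read 1678, 1785, 1782 and 4362 FPKM in Apc_WT, 1709, 846, 603 and 2013 in Apc_HET and 225, 382, 240 and 375 in Apc_KO. All 12 fell in Apc_KO against Apc_WT (median -3.16), and 0 were called in Apc_HET. Enteroendocrine markers fell as well, 7 of 7 tested with a median of -3.10, and their sum was 295, 550, 459 and 1211 FPKM in Apc_WT replicates 1 to 4, 541 to 759 in Apc_HET and 19.1 to 123 in Apc_KO. Of 5 Paneth markers 2 fell and 1 rose, and of 4 tuft markers 3 fell and 1 rose. Over all symbols 17.7% fell and 27.9% rose. Apc_KO replicate 1 had the highest xenobiotic sum of its group and the lowest enterocyte sum, and Cyp3a13 and Cyp2e1 made up 57.4 and 30.8 FPKM of that xenobiotic sum. The part of the enterocyte and enteroendocrine signals in the P450 falls was not tested, and in a bulk sample fewer cells of a type and less RNA per cell cannot be told apart. Without Apc_WT replicate 4 the calls were still 9 higher and 20 lower, with 40 symbols tested.

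**Figure D4:**
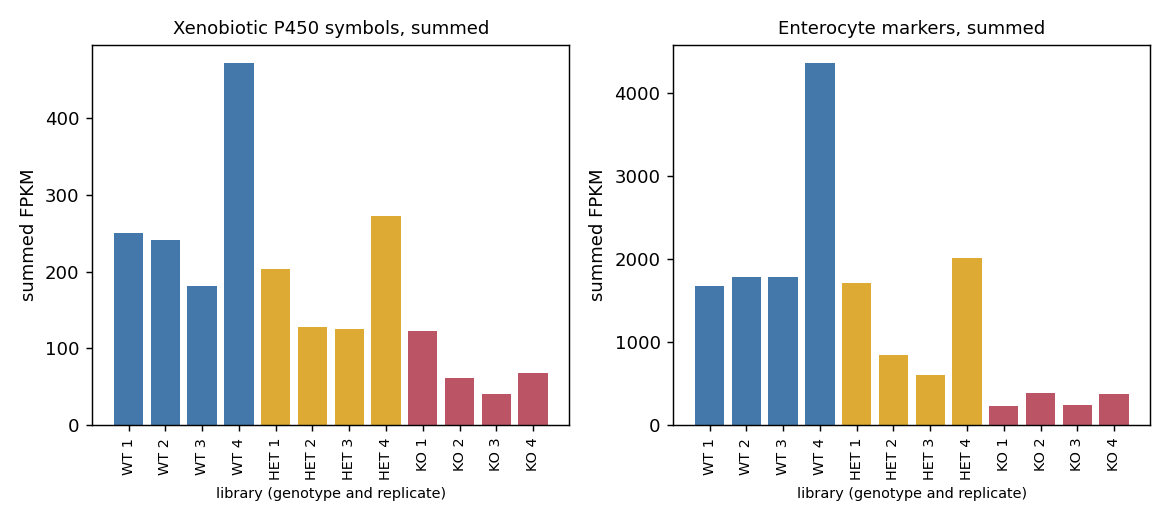
FPKM summed per library over the 18 xenobiotic P450 symbols (left) and over 12 enterocyte markers (right), with 1 bar per library. Apc_WT replicate 4 is the highest bar of both panels (473 and 4362 FPKM), and Apc_HET replicates 2 and 3 are the lowest Apc_HET bars of both.

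The Apc_KO libraries also differed among themselves. Replicates 2 and 3 both stood above replicates 1 and 4 in 8 of the 20 symbols that fell and in 3 of the 9 that rose, Cyp4f39 and Cyp51 among the latter. Replicates 1 and 4 both stood above 2 and 3 in 2 of the 20 and in 4 of the 9, with Cyp27a1 and Cyp26b1 among the 4. The same counts were not made over all genes, so they cannot be called particular to P450 genes. Stem cell markers (Lgr5, Ascl2, Olfm4, Smoc2 and Axin2, none at 0) summed to 472, 917, 1007 and 332 FPKM in Apc_KO replicates 1 to 4, beside 5218 to 6001 in Apc_WT, where Olfm4 made up most of it. Goblet markers (8 genes, 7 lower) summed to 211, 472, 482 and 262 in the same order, beside 1489 to 2261 in Apc_WT. Of the 5 stem cell markers Lgr5 and Axin2 rose, Olfm4 fell, and Ascl2 and Smoc2 did not pass. For these lists too, the shares over all symbols were 27.9% higher and 17.7% lower. Of 8 stroma and endothelium markers, 4 were summed. Markers that were not listed, had loci that differ between genotypes or had a failed estimate were left out, so a missing marker need not be silent. Sums of the 4 were 6.81 to 20.9 FPKM (Apc_WT), 11.8 to 83.7 (Apc_HET) and 154 to 173 (Apc_KO), most of it Vim in Apc_KO, and the 3 tested rose. The 3 tested were Vim, Pdgfra and the endothelial gene Cdh5. Cdh5 read 27.6, 19.7, 14.2 and 29.3 FPKM in Apc_KO and at most 0.0158 elsewhere, while Pdgfra read 7.81 to 34.9 FPKM in Apc_KO and at most 0.0604 in Apc_WT. The collagen gene Col1a1 was at 0 in 2 Apc_WT, 3 Apc_HET and 2 Apc_KO libraries. Leukocyte markers (6 of 10 left after the same exclusions) summed to 4.95 to 10.3 FPKM in every genotype, but single members moved. Of the 3 tested in Apc_KO against Apc_WT, Itgam fell (mean 3.16 to 0.347 FPKM, difference -1.63). Itgae rose (1.54 to 4.63 FPKM, difference 1.15), and Cd3e did not pass. The part of the stroma, endothelium and leukocyte signals in the P450 genes that rose was not tested. A bulk sample does not show which cells this RNA came from.

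Transcription factors known to regulate P450 genes were measured beside them. Of 18 tested, 10 fell, 4 rose and 4 did not pass (median -0.87). Over all symbols 17.7% were called lower and 27.9% higher, with a median of 0.12. Vdr, the vitamin D receptor, which induces Cyp3a and Cyp24a1 genes, read 185, 183, 157 and 175 FPKM in Apc_WT, 188, 204, 214 and 198 in Apc_HET and 6.89, 15.9, 22.1 and 4.40 in Apc_KO. Nr1i3 (the constitutive androstane receptor) fell by 2.73 and Nr1i2 (the pregnane X receptor) by 1.20. Both are sensors of foreign compounds that induce Cyp2b, Cyp2c and Cyp3a genes. Hnf4a (278 ± 23.8 to 94.1 ± 28.6 FPKM, difference -1.60) and Hnf4g (-2.42), chosen after their values were seen because of the promoter match, fell too.

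Other regulators rose. Rarb and Rarg, receptors for retinoic acid, read at most 0.726 and 0.402 FPKM in Apc_WT and 9.23 to 38.8 and 8.74 to 12.8 in Apc_KO (differences 3.61 and 3.10). Ahr, the dioxin receptor that induces Cyp1a1 and Cyp1b1, rose by 1.07, from 6.65 ± 0.984 FPKM in Apc_WT to 15.4 ± 4.59 in Apc_KO (SD, n = 4). Of the 18 factors, 0 were called in Apc_HET.

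**Figure D5:**
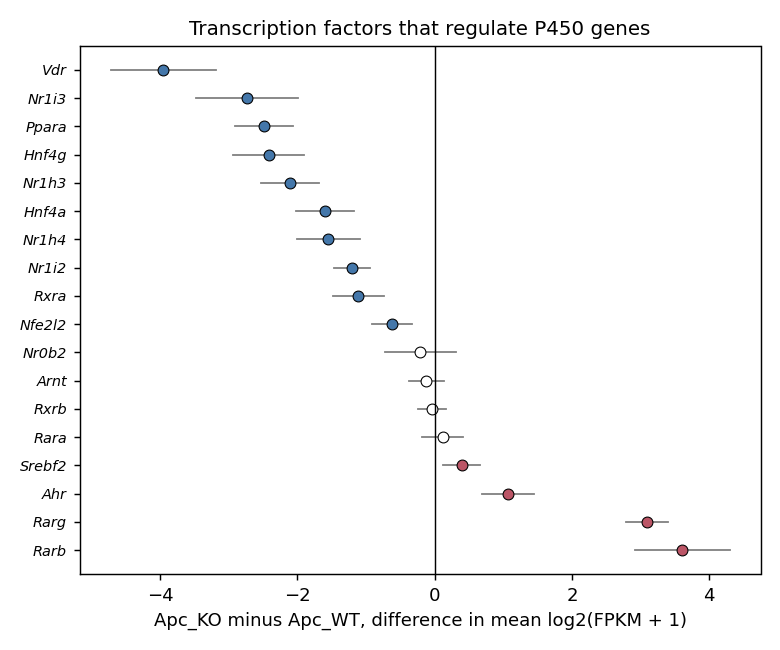
Difference in mean log2(FPKM + 1) between Apc_KO and Apc_WT for 18 transcription factors that regulate P450 genes, with 95% confidence intervals from the limma fit. Blue points were called lower (10), red points higher (4) and white points did not pass, with Vdr at -3.95 and Rarb at 3.61 as the ends.

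Partners of the enzymes moved less. Por, the electron donor of microsomal P450 enzymes, read 46.7, 40.9, 40.7 and 49.9 FPKM in Apc_WT and 86.9, 47.5, 43.0 and 76.0 in Apc_KO and did not pass (0.44, SE 0.20, limma adjusted p = 0.0979). Of 7 electron donors and partners tested, 4 fell and 0 rose, beside 17.7% lower and 27.9% higher over all symbols. The 4 were Cyb5r3 (-0.93), Cyb5b (-0.59), Pgrmc1 (-0.59) and Pgrmc2 (-0.23). Against Apc_HET, Por was called higher (0.61, limma adjusted p = 0.0317), Pgrmc1 was called lower (-0.40), and Cyb5r3, Cyb5b and Pgrmc2 did not pass. Of 8 genes of haem synthesis, Alas1, its rate-limiting enzyme, fell by 0.48 against Apc_WT and the other 7 did not pass. That is 1 of 8 lower, beside 17.7% of all symbols.

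The comparison of Apc_HET with Apc_WT, in which 1 copy was targeted, gave no P450 call. Of 41 symbols 0 passed, as did 0% of all 12962 symbols. At an unadjusted p under 0.05 there were 3 of 41 P450 symbols, Cyp3a11, Cyp2d26 and Cyp4f16, all with lower values in Apc_HET, beside 4.33% of all symbols and 1.06% with lower values. That count was 1 without Apc_WT replicate 4, Apc_HET replicate 2, Apc_HET replicate 3 or Apc_KO replicate 2, 6 without Apc_WT replicate 3 and 9 without Apc_HET replicate 4. Cyp3a11, whose libraries are given above, had a difference of -1.53 (SE 0.49, limma adjusted p = 0.987), and 3 of 4 Apc_HET libraries were below the lowest Apc_WT library. Cyp2d26 read 22.3, 24.8, 20.9 and 58.0 FPKM in Apc_WT, 23.6, 12.2, 10.5 and 23.4 in Apc_HET and 8.06, 9.61, 6.08 and 10.9 in Apc_KO (Apc_HET difference -0.77, limma adjusted p = 0.987), and its difference without Apc_WT replicate 4 was -0.44. Cyp4f16 read 15.9, 12.4, 11.4 and 14.7 FPKM in Apc_HET (difference -0.37, limma adjusted p = 0.987). Values were below those of Apc_WT in 13 of 17 xenobiotic symbols, with a class median of -0.52, beside -0.97 for the enterocyte markers and 0.07 for all symbols. The libraries of Apc_HET and Apc_WT overlapped in each of the 41 P450 symbols, while 6.08% of all symbols showed no overlap.

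Cyp1a1, the classic target of the dioxin receptor, could not enter the fit of all genotypes because its locus differs between the tables. In Apc_WT and Apc_HET it is 352 coding bases (chr9:57700246-57700597), and in Apc_KO another exonic stretch of 477 bases without coding sequence (chr9:57703149-57703625). It read 2.39, 2.76, 2.05 and 1.03 FPKM in Apc_WT and 0.266, 0.104, 0.110 and 0.262 in Apc_HET, without overlap. It reached 1 FPKM in Apc_WT libraries alone and so had to differ once it passed the filter. In Apc_KO, over the other stretch, it was listed at 0 in 3 libraries and at 0.304 FPKM in replicate 2. A fit of only Apc_WT and Apc_HET, added after the data were seen, gave a difference of -1.33 (SE 0.20), which did not pass over all symbols (limma adjusted p = 0.457).

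Comparing Apc_KO with Apc_HET, which shares the Apc_KO libraries with the first comparison, gave 27 of 41 P450 calls, 9 higher and 18 lower, beside 41.8% of all symbols called, 22.8% higher and 18.9% lower. Of the calls, 26 were made in both comparisons, and the libraries did not overlap in 24 symbols (39.5% over all symbols). Cyp2d26 (-0.87), Cyp3a13 (-1.09) and Cyp4f16 (-0.35) were called against Apc_WT and not against Apc_HET, where these values did not pass. Cyp4f41-ps (-0.56) was called against Apc_HET and not against Apc_WT. The differences from Apc_HET were -2.64 for Cyp3a11, -3.60 for Cyp2c65, -3.29 for Cyp4f14, 2.48 for Cyp4b1 and 2.37 for Cyp27a1.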

How the data were processed

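RNA from sorted Lgr5-GFP+ cells of 12 mice was sequenced, 1 library per mouse, from random-primed cDNA of total RNA. The authors deposited 1 table of FPKM per library, per the file headers. The submitters' processing notes name TopHat with Bowtie, Cuffdiff with Cufflinks, and the mm10 (GRCm38) build, and their versions and annotation are not given in the sources used here. Labels name separate mice, so p-values measure the spread between mice, and no batch is given.

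FPKM were summed per symbol. Of 14499 symbols, 295 whose loci differ between tables and 122 with a failed estimate stayed out. Symbols with at least 1 FPKM in at least 4 libraries (12962) entered 1 fit of log2(FPKM + 1) over all 12 libraries with limma 3.58.1 (R 4.3.3, lmFit, contrasts.fit, eBayes with trend), two-sided, adjusted by Benjamini-Hochberg within a comparison. The pseudocount of 1 understates the change of low genes. A call is an adjusted p under 0.05. The fit was tested on simulated data. Loci that name no gene held 1.01% to 9.67% of FPKM. Relative depth read from low values was 0.371 to 1 of Apc_WT replicate 1 in Apc_WT and Apc_HET (149 to 225 loci per library). In Apc_KO it was 0.611 to 0.966 from only 27 to 50 loci, and it was used in no result. Whether the genotypes' tables were normalised together is not given in the sources used here.

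Values in every library were given for up to 4 called symbols per class and direction, ranked by difference in log2(FPKM + 1). Ranking by the ratio of means would differ. Symbols whose higher group averaged under 5 FPKM were left out of this ranking. Values were also given for the most abundant symbol per class and for the 3 smallest p in Apc_HET. From the lists of regulators, partners and haem synthesis, up to 4 called members of largest change were named, and Vdr, Ahr, Nr1i2 and Por in any case. Further names were chosen after their values were seen. Members, classes and lists were chosen with earlier results of these data known. Alternatives were other pseudocounts, filters, scalings, fits and left-out libraries, and 1 fit of Apc_WT with Apc_HET was added after the data were seen.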

Additional observations from a re-analysis of the deposited data

Results flagged for a closer look

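Of 126 groups of 4 libraries of a P450 symbol, 11 held 1 library whose gap to its nearest neighbour was over 0.829 of the group's range. Chance flags about 1 in 20 groups of normally distributed values. FPKM cannot fall below 0, so that rate need not hold here. In the flagged groups of Cyp2c29, Cyp1a1 and Cyp1b1 all other libraries were at 0, which fixes the gap at the whole range. In each of the 11 the library was the highest of its group. In Apc_WT these were Cyp4f14 (125.6 FPKM) and Cyp2d26 (58.02 FPKM) in replicate 4, and Cyp51 (26.55 FPKM) and Cyp1b1 (0.01415 FPKM) in replicate 3. In Apc_HET it was Cyp2d9 in replicate 4 (1.518 FPKM). In Apc_KO they were Cyp4f15 (1.855 FPKM), Cyp4a10 (0.8282 FPKM) and Cyp2c29 (0.193 FPKM) in replicate 4, Cyp2u1 (0.6785 FPKM) and Cyp1a1 (0.3037 FPKM) in replicate 2, and Cyp3a59 (0.6029 FPKM) in replicate 1.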

How the results depend on the processing

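Counts of P450 calls were recomputed under 21 planned settings, and that of Apc_HET against Apc_WT under 1 added setting too. Single values were recomputed for the 41 symbols of Apc_KO against Apc_WT, the 27 called in Apc_KO against Apc_HET and 3 of Apc_HET against Apc_WT, wherever the symbol passed the setting's filter. Of 1439 such values, 1390 kept their direction and call, 32 lost the call, 5 gained it and 12 changed sign. Counts of P450 calls moved by over 1.5 times under a filter of 5 FPKM, which leaves 22 symbols to test. Apc_KO against Apc_WT then had 18 calls, 5 higher and 13 lower, and Apc_KO against Apc_HET had 15, 5 higher and 10 lower. With 1 library left out, Apc_KO against Apc_WT had 26 to 29 calls (6 to 9 higher, 20 lower in every case), Apc_KO against Apc_HET 21 to 29 (7 to 9 higher, 13 to 20 lower), and Apc_HET against Apc_WT 0. Correlations of same-numbered deviations were 0.18, -0.10, 0.12 and 0.15 for Apc_KO with Apc_WT, so 3 of 4 pairs were over 0.1, and 0 of 8 were in the other comparisons. Since not every pair was, the numbers were not taken to pair the libraries. A fit with the replicate number as a block gave 30 calls (9 higher, 21 lower) against Apc_WT, 29 (9 and 20) for Apc_KO against Apc_HET and 0 for Apc_HET against Apc_WT.

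With 1 library left out, Cyp2c55 ran from -0.57 to 0.23, Cyp2e1 from -0.44 to 0.17 and Cyp2t4 from -0.30 to 0.58. The values that changed sign, among those recomputed, were uncalled ones of Apc_KO against Apc_WT, the comparison in which uncalled symbols were included in full. With quantile normalization they were Cyp27b1 (-0.10), Cyp2t4 (-0.16), Cyp2w1 (-0.11) and Cyp4a32 (-0.23). Cyp2t4 was at -0.41 with a pseudocount of 0.1 and at -0.30 without Apc_KO replicate 4, and Cyp4a32 was at -0.10 with array weights. Cyp2c55 was at 0.23 without Apc_WT replicate 4. Cyp2e1 was at 0.073 without Apc_WT replicate 1, 0.0093 without Apc_WT replicate 4, 0.063 without Apc_KO replicate 2 and 0.17 without Apc_KO replicate 3. Quantile normalization also called Cyp2r1 (-0.59), Cyp39a1 (-0.38), Cyp4a10 (-0.75) and Cyp4f41-ps (-0.64) lower, for 9 higher and 24 lower in all, and the block called Cyp4a10 lower (-0.45). In Apc_KO against Apc_HET, Cyp2b10, Cyp2c29, Cyp2d22, Cyp4f13 and Cyp4f41-ps lost their calls under at least 1 setting. The causes were not tested. Depth per library is unknown, so counting error at low FPKM cannot be given.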
